A study of Mus musculus with 5 samples.

Results

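A set of 10 genes that build the T cell receptor (TCR) was followed through 5 single-cell RNA sequencing (scRNA-seq) libraries of mouse small cell lung cancer (SCLC). They are the recombination genes Rag2 and Dntt, the pre-TCR gene Ptcra, the αβ constant genes Trac, Trbc1 and Trbc2, and the γδ constant genes Trdc, Trgc1, Trgc2 and Trgc4. The 10 genes were taken by symbol from the 32589 genes of each matrix of unique molecular identifiers (UMIs), and all 10 were measured in all 5 libraries. They were described in T-lineage cells, defined as cells with at least 1 UMI over the CD3 genes Cd3e, Cd3d and Cd3g and no UMI of the neuroendocrine genes Chga and Chgb. This definition held 13020 of 71190 retained cells. The cells were then split by detection (at least 1 UMI) of the co-receptor genes Cd4 and Cd8a, into cells with neither, with Cd8a only, with both and with Cd4 only, and by detection of the proliferation gene Mki67.

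All 5 libraries came from Rb1 fl/fl x Trp53 fl/fl mice in which inhaled adenoviral Cre deleted both genes in the lung, and therapy began about 6 months later, once a target lesion was measurable by µCT. The groups were vehicle (PBS), anti-PD-1, ERBB2i (the ERBB2 inhibitor mubritinib, given orally), the combination of both agents, and the combination in a mouse or mice labelled as in response. Both agents were dosed at 10 mg/kg every 3 days, as the protocol gives for the combination. Each group was 1 library, so no comparison between groups has a replicate, no test was possible. The number of animals behind a library was not found in the labels or the methods.

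A T cell receptor is assembled by cutting and joining gene segments. Rag2 is a subunit of the recombinase that makes the cuts, and Dntt encodes terminal deoxynucleotidyl transferase, which adds untemplated nucleotides at the joints. In the thymus a rearranged β chain first pairs with the invariant pre-TCR α chain encoded by Ptcra, the cells proliferate and acquire CD4 and CD8, and the α chain is rearranged afterwards. The δ genes lie inside the α locus, so that joining a Vα to a Jα segment removes Trdc from that chromosome. The γ genes form a separate locus, and γδ T cells carry a receptor of γ and δ chains in place of α and β.

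The libraries were unequal in T-lineage cells. They were most numerous in the combination in response, where 7238 of the retained cells (85.7%) met the definition, followed by anti-PD-1 with 4265 (37.9%). ERBB2i held 1229 (5.55%) and the combination 286 (1.29%), while vehicle held 2 of 7213 (0.0277%). Before the filters on barcodes vehicle had 68 T-lineage barcodes (0.700% of all) and the combination 765 (2.81%), and without the exclusion on Chga and Chgb the shares were 0.360% in vehicle, 12.4% in ERBB2i and 4.23% in the combination. The labels give lung tumour tissue and an epithelial cell type throughout. In the combination in response library the defining tumour markers were nearly absent, with 5 UMIs of Chga and Chgb over all 8447 retained cells, against 19494 to 148753 in the others. Libraries held 21624506 to 88497833 UMIs in all, and T-lineage cells had a median of 1050.5 to 1584 UMIs in the 4 libraries with more than 2 of them. Barcodes had 27 bases in vehicle, anti-PD-1 and the combination in response and 24 in ERBB2i and the combination, and 782 barcodes occurred in both ERBB2i and the combination. Vehicle shared 77 barcodes with anti-PD-1 and 69 with the combination in response, and anti-PD-1 shared 79 with the combination in response. In the T-lineage cells all 4 B cell and all 5 myeloid markers had UMIs in each of the 4 libraries with more than 2 such cells. Levels are given here as counts per 1000000 UMIs of the cells summed (CPM). The summed myeloid level was lowest in anti-PD-1 (11.8 CPM) and highest in the combination (1160 CPM). The NK cell level was also lowest in anti-PD-1 (4.01 CPM, Ncr1 at 0), and highest in ERBB2i (206 CPM). The B cell level lay between 46.5 CPM (ERBB2i) and 69.6 CPM (combination in response), and the erythroid level between 7.97 and 304 CPM in the same libraries. The part of these cells in the levels given here was not tested.

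Markers of T cell stage separated the libraries. Klf2, a factor of quiescent mature T cells, was at 89.7 CPM in the T-lineage cells of anti-PD-1 and 241 CPM in those of the combination in response, against 1637 in ERBB2i and 1248 in the combination. Cells with both Cd4 and Cd8a were 1105 (25.9%) of the T-lineage cells in anti-PD-1 and 3087 (42.6%) in the combination in response, but 3 of 1229 in ERBB2i and 0 of 286 in the combination, which allows a share of up to 1.28% (exact binomial upper bound). These shares depend on depth. With all genes read from cells thinned to 500 UMIs, cells with both were 8.36% in anti-PD-1 and 17.2% in the combination in response, and without cells that had exactly 1 UMI of Cd4 or of Cd8a they were 13.3% and 30.4%. Markers of thymic epithelium had 282 UMIs in the retained cells of the combination in response, and 20.8 CPM there against 29.7 to 39.0 CPM in the other libraries. All 6 genes were detected there and in anti-PD-1 (996 UMIs), 5 in ERBB2i (2363 UMIs) and in the combination (2310 UMIs), and 3 in vehicle (2010 UMIs).

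In RefSeq (GRCm38.p6), Rag2 spans chr2:101624712-101632528, Dntt chr19:41029275-41059525 and Ptcra chr17:46755663-46763712. Trdc (chr14:54142851-54146108) lies 74.4 kb before Trac (chr14:54220521-54224198). Trbc1 (chr6:41538219-41539665) and Trbc2 (chr6:41546730-41548181) are 7.06 kb apart. Trgc1 (chr13:19214103-19216618), Trgc2 (chr13:19305060-19307551) and Trgc4 (chr13:19344558-19352343) are separated by 88.4 and 37.0 kb. Rag2, Dntt and Trdc each overlap a gene on the opposite strand in the GRCm39 annotation (Iftap for Rag2, Opalin among others for Dntt, Trdv5 among others for Trdc), and the sources do not say whether the counting used strand.

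Rag2, Dntt and Ptcra were high in the same libraries, and for these 3 members RefSeq gave a promoter window of 300 bases, 250 before and 50 after the transcription start. They are shown to set the windows side by side. The capitals mark CAGCTG, an E-box that reads the same on both strands and is bound by E proteins. The Rag2 window is chr2:101624462-101624761 (plus strand), that of Dntt chr19:41029025-41029324 (plus strand) and that of Ptcra chr17:46763663-46763962 (minus strand).
Rag2: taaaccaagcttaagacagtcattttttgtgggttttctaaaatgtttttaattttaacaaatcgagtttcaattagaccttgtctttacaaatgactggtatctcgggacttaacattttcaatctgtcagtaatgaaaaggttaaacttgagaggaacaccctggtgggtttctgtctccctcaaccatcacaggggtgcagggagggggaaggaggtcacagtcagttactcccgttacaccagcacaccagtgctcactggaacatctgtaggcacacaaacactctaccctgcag
Dntt: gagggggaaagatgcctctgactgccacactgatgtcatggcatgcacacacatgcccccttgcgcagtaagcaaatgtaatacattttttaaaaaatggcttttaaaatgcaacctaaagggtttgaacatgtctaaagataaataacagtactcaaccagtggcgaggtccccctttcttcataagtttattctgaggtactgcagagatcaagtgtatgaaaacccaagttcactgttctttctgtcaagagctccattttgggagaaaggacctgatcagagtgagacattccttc
Ptcra: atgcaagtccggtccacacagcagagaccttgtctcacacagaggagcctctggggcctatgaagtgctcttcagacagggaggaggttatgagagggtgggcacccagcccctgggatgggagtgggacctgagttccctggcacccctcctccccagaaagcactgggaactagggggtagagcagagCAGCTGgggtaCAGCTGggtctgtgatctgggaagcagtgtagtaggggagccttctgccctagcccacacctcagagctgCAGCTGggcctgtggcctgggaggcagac
The Ptcra window held CAGCTG 3 times, beginning 60 and 49 bases before and 21 bases after the start. The windows of Rag2 and Dntt held none. Of 32544 promoter windows of the same length, 16.4% held the motif at least once and 0.209% (68 windows) at least 3 times. The related E-box CACCTG was in none of the 3 windows and in 20.3% of all windows, and the general form CANNTG, which contains both, occurred 2, 3 and 3 times in Rag2, Dntt and Ptcra and in 72.3% of all windows. These matches describe the letters of the windows only.

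The recombination and pre-TCR genes were high in the anti-PD-1 and combination in response libraries and at or near 0 elsewhere. CPM values are given with exact Poisson 95% intervals that, like all intervals given here, cover counting error only. Rag2 had 1735 UMIs in T-lineage cells of anti-PD-1 (158 CPM, 151 to 166) and 3866 in the combination in response (312 CPM, 302 to 322). It had 1 UMI in ERBB2i (0.664 CPM, 0.0168 to 3.70), 0 in the combination, where 3 UMIs would be 8.25 CPM, and 0 in the 2 cells of vehicle. Dntt had 12958 UMIs in anti-PD-1 (1180 CPM, 1159 to 1200), 18120 in the combination in response (1463 CPM, 1442 to 1485), 8 in ERBB2i (5.31 CPM, 2.29 to 10.5), 14 in the combination (38.5 CPM, 21.0 to 64.6) and 0 in vehicle. The order of the libraries was thus the same for both genes at the top, with intervals that did not overlap. The 14 Dntt UMIs of the combination came from 3 cells, 9 of them from 1 cell, all with Cd8a only.

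Ptcra had 1123 UMIs in anti-PD-1 (102 CPM, 96.3 to 108) and 1228 in the combination in response (99.2 CPM, 93.7 to 105), and these levels could not be told apart. It had 0 UMIs in ERBB2i, where 3 UMIs would be 1.99 CPM, 1 in the combination and 0 in vehicle. Detection followed the same order. After each cell was thinned to 500 UMIs, which every retained cell reached, so that depth could not set the shares, Rag2 was found in 8.39% of T-lineage cells of anti-PD-1 and 14.5% of the combination in response, Dntt in 39.5% and 45.3%, and Ptcra in 3.63% and 3.12%. Without thinning the shares were 24.1% and 30.8%, 64.9% and 68.0%, and 15.6% and 9.56%.

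**Figure D1:**
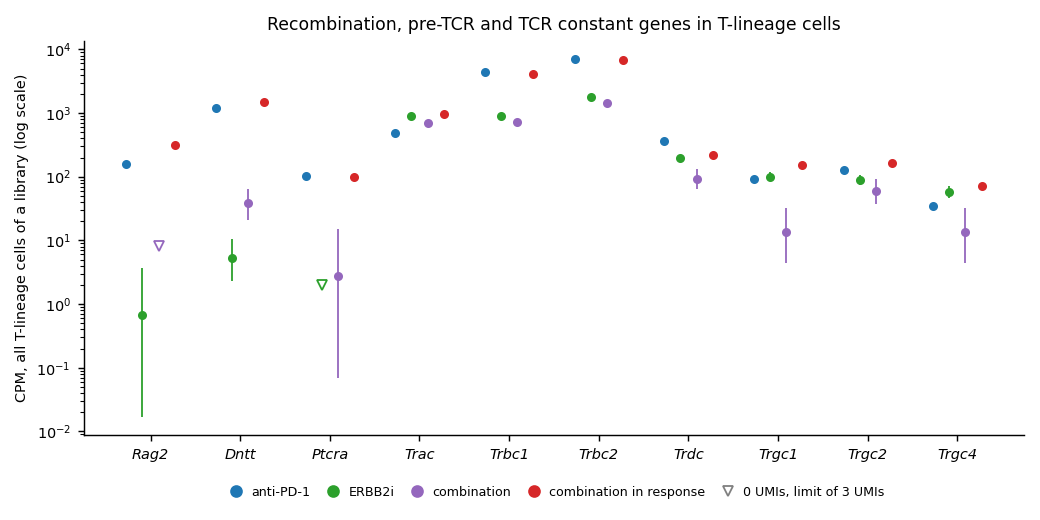
CPM of each member (log axis) over all T-lineage cells of 4 libraries, with exact Poisson 95% intervals. Open triangles mark a gene with 0 UMIs, drawn at the level that 3 UMIs would give. Rag2, Dntt and Ptcra sit at 99.2 CPM or more in anti-PD-1 and the combination in response and at 38.5 CPM or less in ERBB2i and the combination.

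UMIs of the members were also found in cells of other types. In tumour-like cells (UMIs of Chga or Chgb and none of the CD3 genes) of anti-PD-1, at a median of 3179.5 UMIs a cell against 1584 in T-lineage cells, Dntt was found in 7.59%, Trbc2 in 26.1%, Trac in 2.05%, Trdc in 1.53% and Rag2 in 0.901%, each below the unthinned T-lineage share. In ERBB2i the Dntt level of T-lineage cells (5.31 CPM) was near that of its 17087 tumour-like cells (4.63 CPM, 1.21% of cells at a median of 2674 UMIs). The source of these Dntt UMIs was not tested. The combination in response had 1 tumour-like cell, so its reference was 26 cells with B cell genes (at least 2 UMIs of Cd79a and Cd79b), at a median of 2016.5 UMIs against 1279.5. Of these, 57.7% had Trbc2, 15.4% Dntt and 0 Rag2 or Ptcra. Trgc1 and Trgc2 were no lower in them than in T-lineage cells. Trgc1 was at 562 CPM (34 UMIs in 3 cells, 11.5%) against 153 CPM. Trgc2 was at 248 CPM (15 UMIs in 2 cells, 7.69%) against 165 CPM. Trgc4 was at 66.2 CPM (18.0 to 169), from 4 UMIs in 1 cell, below its T-lineage level, which lay inside that interval.

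The αβ constant genes were present in all 4 libraries with T-lineage cells, and Trac did not follow the β genes. Trac encodes the constant part of the α chain. It had 5252 UMIs in anti-PD-1 (478 CPM, 465 to 491), 1359 in ERBB2i (902 CPM, 855 to 952), 250 in the combination (687 CPM, 605 to 778) and 11784 in the combination in response (952 CPM, 934 to 969). Anti-PD-1 was lowest, and the intervals of ERBB2i and the combination in response overlapped. Trbc1 stood at 4329, 890, 726 and 4069 CPM in the same order of libraries. Trbc2, the other β constant gene, stood at 7092, 1813, 1460 and 6798 CPM. For both β genes the 2 libraries rich in Rag2 were the high ones. The 2 T-lineage cells of vehicle held 1 UMI of Trac, 5 of Trbc1 and 5 of Trbc2.

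The γδ constant genes were spread differently again. Trdc had 4036 UMIs in anti-PD-1 (367 CPM, 356 to 379), 299 in ERBB2i (199 CPM, 177 to 222), 34 in the combination (93.5 CPM, 64.7 to 131) and 2762 in the combination in response (223 CPM, 215 to 232). Trgc1 stood at 93.1, 100, 13.7 and 153 CPM in the same libraries, Trgc2 at 129, 89.6, 60.5 and 165 CPM, and Trgc4 at 34.2, 57.8, 13.7 and 72.0 CPM. The combination had the lowest level of each γ gene, from 5, 22 and 5 UMIs, and its Trgc2 interval (37.9 to 91.6 CPM) overlapped that of ERBB2i (75.2 to 106 CPM). Vehicle had 0 UMIs of all 4 genes.

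Ratios between libraries put sizes on these orders. A member is counted as higher or lower when its CPM differed at least 2-fold with at least 20 UMIs over both sides, and the share of all genes that did so under the same rule stands beside each count. The 4 comparisons share libraries and are not independent of each other. Against ERBB2i, 5 of the 10 members were at least 2-fold higher in anti-PD-1 (13.9% of all 12438 genes) and 0 lower (32.7%). The log2 ratio was 7.89 for Rag2 (95% counting interval 5.41 to 13.20, from 1 UMI in ERBB2i) and 7.79 for Dntt (6.82 to 9.01), Ptcra was at least 51.3-fold higher, and Trbc1 and Trbc2 were 4.86-fold and 3.91-fold higher. Trac was lower by less than the limit, at a log2 ratio of -0.92, and Trdc was 0.89 (0.72 to 1.06). TMM scaling, a trimmed mean scaling, moved all genes of this comparison by a log2 of 0.68 and put Trac at -0.24 and Trdc at 1.57.

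Between the combination libraries, 9 of 10 members were at least 2-fold higher in response (14.9% of 11809 genes) and 0 lower (17.2%). Rag2 was at least 37.9-fold higher and Dntt 38.0-fold, and Ptcra had a log2 ratio of 5.17 (2.69 to 10.48, from 1 UMI). Trac alone stayed within 2-fold (log2 0.47, 0.29 to 0.66), and without the filters on barcodes it turned to -0.20. Between the combination and ERBB2i, 8 members had enough UMIs. Dntt was higher (6.49% of 9592 genes), by a log2 ratio of 2.86 that rests on 14 against 8 UMIs. Trdc, Trgc1 and Trgc4 were lower (8.11%), at log2 ratios of -1.09 (-1.64 to -0.57), -2.87 (-4.51 to -1.61) and -2.07 (-3.73 to -0.79).

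The combination in response and anti-PD-1, both rich in Rag2, differed less in these members. Of the 10, 1 was at least 2-fold higher in response (24.3% of 13069 genes) and 0 lower (14.6%). The member was Trgc4 (log2 1.07, 0.90 to 1.25), with Trac (0.99, 0.95 to 1.04) and Rag2 (0.98, 0.90 to 1.07) just under the limit. Dntt was 0.31 (0.28 to 0.34), Ptcra -0.04 (-0.16 to 0.07), Trbc1 -0.09, Trbc2 -0.06 and Trdc -0.72 (-0.79 to -0.65). The count was 0 with TMM scaling, which moved all genes of this comparison by a log2 of -0.23, and 4 at a limit of 1.5-fold. Without the filters on barcodes Trac was at 0.52, Rag2 at 0.64, Trdc at -0.30 and Trgc4 at 1.35.

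In anti-PD-1 and the combination in response, the recombination genes peaked in cells with both co-receptors. Rag2 was at 43.4 CPM in the 1181 cells with neither, 158 in the 1556 with Cd8a only, 288 (268 to 308) in the 1105 with both and 112 (86.7 to 142) in the 423 with Cd4 only of anti-PD-1. It was at 119, 279, 429 (412 to 447) and 201 (178 to 227) CPM in the 1276, 1937, 3087 and 938 cells of the combination in response. The order of the 4 classes was the same in both libraries, from neither through Cd4 only and Cd8a only to both.

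Dntt followed the same course. It was at 681, 1302, 1616 (1570 to 1663) and 670 (606 to 738) CPM in anti-PD-1 and at 856, 1432, 1843 (1808 to 1879) and 875 (825 to 926) in the combination in response, in the order neither, Cd8a only, both and Cd4 only. The levels with neither and with Cd4 only could not be told apart in either library. Ptcra was flatter, at 67.3, 122, 119 and 51.8 CPM and at 127, 86.5, 108 and 51.6 CPM. It was lowest in cells with Cd4 only in both libraries, and highest with Cd8a only or both in anti-PD-1 and with neither in the combination in response.

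Depth differed between the classes, with medians of 2030 UMIs a cell with both and 1062 with Cd4 only in anti-PD-1 and of 1346 and 1190 in the combination in response, so the shares were set on cells thinned to 500 UMIs. In the same class order Rag2 was then found in 2.88%, 9.90%, 13.0% and 6.15% of cells in anti-PD-1 and in 6.58%, 13.5%, 19.6% and 10.0% in the combination in response. Dntt was found in 20.2%, 46.2%, 56.0% and 25.5%, and in 26.9%, 46.7%, 55.8% and 33.0%. The class with both remained the highest for both genes. Within that class Dntt was found in 67.4% (59.1 to 74.9) of thinned cells with Rag2 and in 54.3% (51.1 to 57.5) of those without in anti-PD-1, and in 62.9% (58.9 to 66.7) and 54.1% (52.1 to 56.0) in the combination in response.

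**Figure D2:**
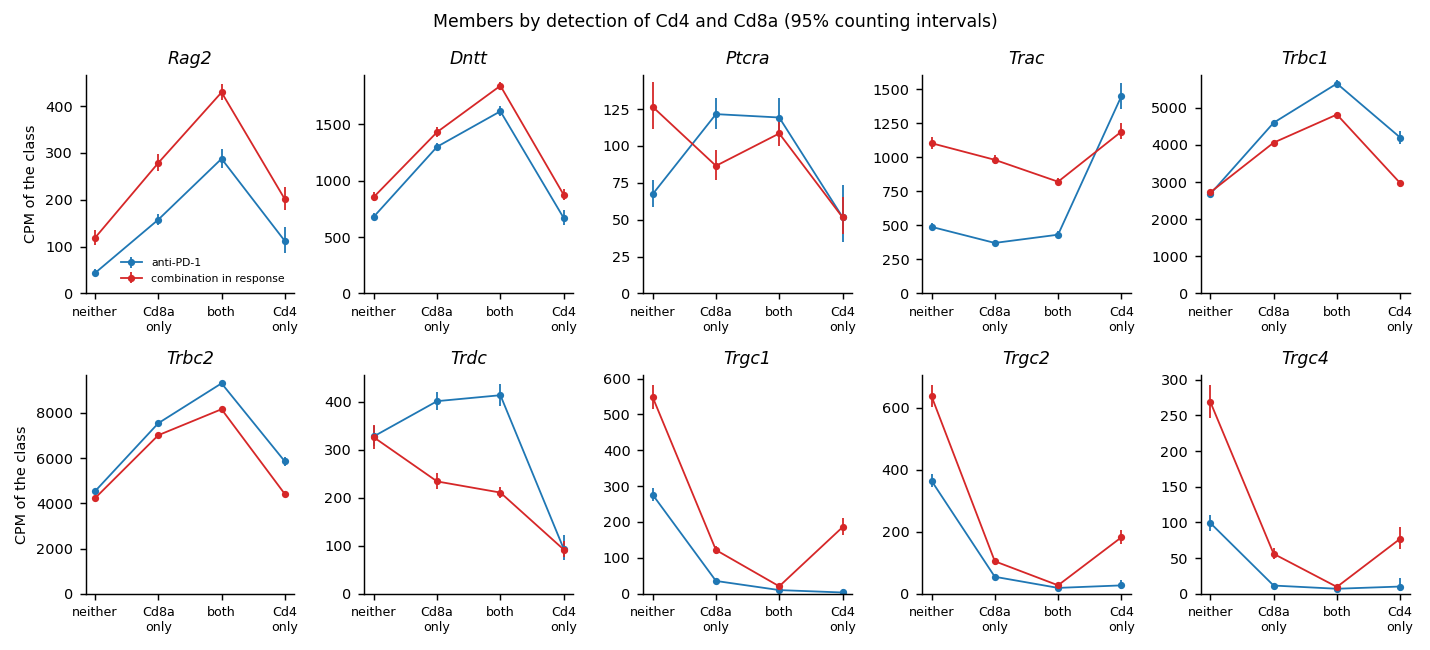
CPM of each member (linear axis from 0) in T-lineage cells with neither co-receptor, Cd8a only, both, and Cd4 only, for anti-PD-1 and the combination in response, with 95% counting intervals. Rag2 and Dntt peak with both co-receptors, at 288 and 1616 CPM in anti-PD-1 and at 429 and 1843 CPM in the combination in response, while the γ genes are highest with neither in those libraries.

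Cells with both co-receptors were then set against cells with Cd4 only. In anti-PD-1, 5 of 10 members were at least 2-fold higher with both (8.18% of 9207 genes) and 1 lower (10.6%). The corresponding counts in the combination in response were 4 higher (7.28% of 10483 genes) and 3 lower (6.89%). Rag2 had log2 ratios of 1.36 (1.00 to 1.74) and 1.09 (0.91 to 1.28), Dntt of 1.27 (1.12 to 1.42) and 1.07 (0.99 to 1.16), and Ptcra of 1.20 (0.67 to 1.78) and 1.07 (0.71 to 1.45). All 3 were higher in both libraries. Trdc was higher too, at 2.14 (1.76 to 2.56) and 1.20 (0.93 to 1.48), and Trgc1 completed the count in anti-PD-1 from 29 against 2 UMIs.

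Trac ran the other way in both libraries, past the limit in anti-PD-1 only. The 3 members counted as lower in the combination in response were Trgc1, Trgc2 and Trgc4. Trac stood at 1449 CPM with Cd4 only against 431 with both in anti-PD-1 (log2 -1.75, -1.87 to -1.62), and at 1189 against 821 CPM in the combination in response (-0.53, -0.62 to -0.45). Trbc1 and Trbc2 were higher with both by less than 2-fold, at 0.43 and 0.67 in anti-PD-1 and 0.70 and 0.89 in the combination in response. When the classes themselves were set on thinned cells, which moves cells with few co-receptor UMIs into other classes, no member passed the limit with both over Cd4 only in anti-PD-1, and 0 were higher in the combination in response. The ratios of Rag2, Dntt and Ptcra were then 0.80, 0.55 and 0.55, and 0.40, 0.32 and 0.24. When cells with exactly 1 UMI of Cd4 or of Cd8a were left out they were 1.66, 1.49 and 2.05, and 1.26, 1.27 and 1.55.

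Other genes of the same steps were read from lists. Of 12 recombination and end-joining genes, 9 passed the minimum in anti-PD-1 and 4 were at least 2-fold higher with both co-receptors, none lower, with a list median of 0.83 against -0.04 over all genes. Beside Rag2 and Dntt these were Xrcc6, a Ku subunit that holds broken ends (491 against 235 CPM, log2 1.06), and Lig4, the end-joining ligase (79.8 against 25.0 CPM, log2 1.67). Of 10 such genes in the combination in response 3 were higher, Rag2, Dntt and Xrcc6 (541 against 255 CPM, log2 1.09), with a median of 0.23 against -0.02. The maturation and egress genes were lower with both in 7 of 8 cases in each library, with medians of -3.79 and -2.78. Ms4a4b was at 52.9 against 1032 CPM in anti-PD-1 and 74.1 against 516 CPM in the combination in response, and Klf2 at 23.5 against 404 and 74.4 against 501 CPM. Of 12 proximal TCR signalling genes 4 and 3 were lower and 0 higher, among them the adhesion gene Cd2 (192 against 1140 and 171 against 674 CPM) and the receptor-tuning gene Cd5 (68.8 against 451 and 160 against 418 CPM). Of 9 early thymocyte genes that passed, 5 and 2 were lower and 0 higher, Il2ra, the IL-2 receptor α chain, and Hes1, a Notch target, in both libraries.

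The γ genes were highest per UMI in cells with neither co-receptor, but were not confined to them. These cells held 2231 of 2812 γ UMIs in anti-PD-1 and 2942 of 4824 in the combination in response. Cells with Cd8a only held 454 and 969, and cells with Cd4 only 24 and 594. In anti-PD-1 Trgc1 was at 276 CPM with neither and 10.0 with both, Trgc2 at 364 and 18.7, and Trgc4 at 99.1 and 6.91. The pairs were 548 and 20.6, 637 and 27.0, and 269 and 9.48 CPM in the combination in response. These are folds of 27.5, 19.5 and 14.3 in anti-PD-1 and 26.6, 23.6 and 28.3 in the combination in response. Over all members 3 were at least 2-fold higher with neither in each library (14.8% of 10636 genes and 9.22% of 10742), and these were the 3 γ genes. In anti-PD-1 4 members were lower with neither (5.37%), namely Rag2 (-2.73), Dntt (-1.25), Trbc1 (-1.08) and Trbc2 (-1.04). Only 2 were lower in the combination in response (6.95%), Rag2 (-1.86) and Dntt (-1.11), with Trbc1 (-0.82) and Trbc2 (-0.95) under the limit. On thinned classes only Rag2 remained at least 2-fold lower, at -1.89 and -1.29.

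Ptcra and Trdc differed between these libraries in sign, under some settings only. Ptcra was at -0.83 (-1.08 to -0.57) with neither over both in anti-PD-1 and at 0.22 (0.01 to 0.44) in the combination in response, and Trdc at -0.34 (-0.46 to -0.21) and 0.63 (0.49 to 0.77). Without the filters on barcodes Ptcra was at -0.80 and -0.11, and with classes set on thinned cells Trdc was at 0.50 and 1.15. The early thymocyte genes Hes1 and Il2ra were higher with neither in both libraries (Hes1 81.9 against 8.64 and 434 against 24.9 CPM, Il2ra 69.6 against 8.99 and 369 against 35.2 CPM). So were 7 of 8 maturation and egress genes, such as Klf2 (163 against 23.5 and 525 against 74.4 CPM) and Il7r, a cytokine receptor gene (88.8 against 7.60 and 267 against 22.5 CPM). Of the γδ list the transcription factor gene Maf (17.2 against 1.38 and 38.5 against 11.8 CPM) and Cd163l1, a scavenger receptor gene of γδ T cells (10.9 against 1.04 and 27.2 against 0.179 CPM) were higher. Only 3 of the 8 genes of that list passed the minimum in anti-PD-1, with 2 higher and 1 lower. In the combination in response 5 passed, with 4 higher and 1 lower. In all, 4 of 9 early thymocyte genes in anti-PD-1 and 5 of 10 in the combination in response were higher with neither, and 0 were lower.

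In ERBB2i, Trac was at 859 CPM with neither, 926 with Cd8a only and 1141 with Cd4 only. Trbc1 was at 825, 986 and 1102 CPM and Trbc2 at 1702, 1901 and 2326 CPM. All 3 αβ genes were lowest with neither and highest with Cd4 only, and neighbours in that order overlapped in their intervals for Trac. Trdc was at 288 CPM (255 to 323) with neither, 15.0 (4.87 to 35.0) with Cd8a only and 61.5 (30.7 to 110) with Cd4 only. In the combination Trac was at 547, 889 and 996 CPM, and Trdc had 28, 6 and 0 UMIs.

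Trac and Trdc split by Mki67 detection in opposite directions. In cells with both co-receptors Trac was at 285 CPM with Mki67 detected and 1148 without in anti-PD-1 (log2 -2.01, -2.17 to -1.85), and at 407 and 1039 CPM in the combination in response (-1.35, -1.47 to -1.24). Trdc ran the other way, at 458 and 194 CPM (1.24, 0.94 to 1.56) and at 436 and 91.6 CPM (2.25, 2.07 to 2.44). Cells with Mki67 also had more UMIs, with medians of 3063.5 against 922 and of 4244 against 1265 in this class. On cells thinned to 500 UMIs Trac was found in 14.2% with Mki67 (11.6 to 17.1) and 35.0% without (30.6 to 39.6) in anti-PD-1, and in 33.4% without (31.6 to 35.2) in the combination in response, where the interval with Mki67 was 16.5% to 23.8%. Trdc was found in 16.2% and 6.21%, and in 13.5% and 3.15%.

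By the 2-fold rule 3 members were higher with Mki67 in anti-PD-1 (10.3% of 8670 genes), which were Trdc and, on 28 against 1 and 49 against 5 UMIs, Trgc1 and Trgc2, and 1 was lower (16.4%), Trac. Trdc was the 1 higher (9.18% of 10092 genes) and Trac the 1 lower (19.5%) in the combination in response. Rag2 was lower with Mki67 by less than 2-fold in both, at -0.55 (-0.79 to -0.31) and -0.60 (-0.73 to -0.47), and Dntt at -0.37 and -0.22. Ptcra was at 0.24 (-0.20 to 0.69) and 0.43 (0.19 to 0.67). The β genes moved least, with Trbc1 at -0.28 and -0.04 and Trbc2 at -0.18 and 0.10. These small ratios turn with the scaling. TMM scaling moved all genes by 0.40 and 0.27 here and put Dntt at 0.03 and 0.05, Trbc1 at 0.12 and 0.23 and Trbc2 at 0.22 in anti-PD-1. When classes and Mki67 were set on thinned cells, Trac stayed at -1.38 and -1.01, and Trdc was at 0.17 in anti-PD-1 and 1.96 in the combination in response.

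The split of Trac was found in every class. Its log2 ratio with Mki67 over without was -3.15 with neither, -2.16 with Cd8a only and -1.17 with Cd4 only in anti-PD-1, and -1.34, -1.43 and -0.96 in the combination in response. Trdc was 1.10, 0.81 and 1.95, and 0.63, 1.87 and 1.51. In all 8 classes of these libraries Trac was thus lower and Trdc higher in cells with Mki67. Among other genes, 7 and 5 of 12 proximal signalling genes were lower and 0 higher with Mki67 in cells with both, for example Themis, needed in thymic selection (287 against 636 and 716 against 2101 CPM), and Lcp2, a TCR adaptor gene (140 against 308 and 202 against 459 CPM).

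**Figure D3:**
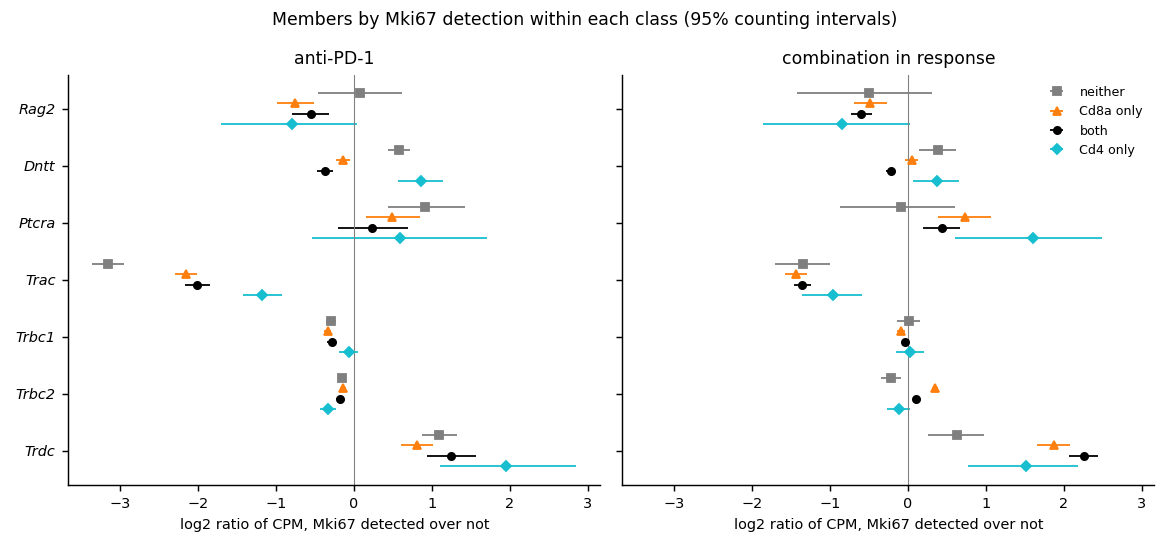
Log2 ratio of CPM, Mki67 detected over not detected, for the recombination, pre-TCR, αβ constant genes and Trdc within each co-receptor class, in anti-PD-1 (left) and the combination in response (right), with 95% counting intervals. Trac lies left of 0 in all 8 classes, from -3.15 to -0.96, and Trdc right of 0, from 0.63 to 2.25.

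Mki67 was detected in 59.2% of cells with both co-receptors in anti-PD-1 and in 15.6% in the combination in response (18.2% and 4.66% on thinned cells), and the libraries were therefore also compared within the Mki67 groups. Over all cells with both, Trac was higher in the combination in response by a log2 of 0.93 (0.84 to 1.02). It was 0.51 (0.36 to 0.66) in cells with Mki67 and -0.14 (-0.27 to -0.01) in cells without. Trdc was at -0.97 (-1.09 to -0.86) over all, -0.07 (-0.20 to 0.06) with Mki67 and -1.08 (-1.41 to -0.74) without. The higher Trac of this library was thus not present among cells with both co-receptors and no Mki67, and in cells with neither and no Mki67 the ratio was 0.04 (-0.06 to 0.14). Rag2 kept a positive ratio in both groups of cells with both, at 0.27 (0.11 to 0.43) and 0.31 (0.10 to 0.54).

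Trac and Trdc were also compared cell by cell, a split chosen after the values above were seen. On thinned cells Trac was found in 11.3% (8.42 to 14.8) of 406 cells with Trdc and 29.2% (27.8 to 30.7) of 3859 without in anti-PD-1. It was found in 19.5% of 333 and 33.9% of 6905 in the combination in response, and in ERBB2i in 12.5% of 40 and 32.5% of 1189. Restricting to cells with both co-receptors gave 10.4% against 24.4% in anti-PD-1 and 18.4% against 31.9% in the combination in response. On thinned cells, pooled over Mki67, Trac was therefore found less often beside Trdc in each of these sets. Without thinning the shares were 39.3% and 52.6% in anti-PD-1, 49.5% and 56.4% in the combination in response and 17.7% and 53.8% in ERBB2i. In cells with both co-receptors they were 42.5% and 50.1% in anti-PD-1, and near equal in the combination in response, at 56.4% and 56.0%. Split by Mki67, thinned T-lineage cells of anti-PD-1 gave 7.89% against 13.5% with it and 18.9% against 41.3% without. Those of the combination in response gave 12.8% against 20.5% and 23.1% against 35.7%. Cells with both gave 7.55% against 15.5% and 21.4% against 35.9% in anti-PD-1. In the combination in response they gave 12.3% against 21.2% and 23.2% against 33.7%. Intervals of this class overlapped in each pair. With Cd8a only and Mki67 in anti-PD-1 the shares were 11.1% and 11.2%. Of thinned T-lineage cells, 83.0% had UMIs of αβ genes only, 11.9% of αβ and γδ genes, 0.188% of γδ genes only and 4.92% of no constant gene in anti-PD-1, and the shares were 86.9%, 7.58%, 0.718% and 4.82% in the combination in response. In ERBB2i they were 66.3%, 5.78%, 3.17% and 24.7%.

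In anti-PD-1 and the combination in response a small number of cells held most γ UMIs. Cells with at least 10 UMIs over Trgc1, Trgc2 and Trgc4, a limit also chosen after the data were seen, were 89 of 4265 (2.09%) in anti-PD-1 and held 73.2% of its 2812 γ UMIs. They were 150 of 7238 (2.07%) in the combination in response and held 83.8% of 4824. There was 1 such cell in ERBB2i, with 2.68% of its 373 γ UMIs, and 0 in the combination. Cells with any γ UMI were nevertheless 143 of 1229 (11.6%) in ERBB2i and 5.94% in the combination. They were 8.49% in anti-PD-1 and 7.88% in the combination in response. By class they were 6.44% of cells with neither co-receptor in anti-PD-1 against 0.181% with both, and 7.76% against 0.227% in the combination in response.

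The γ-rich cells had less Trac and less of the β genes per UMI. Trac was at 46.1 CPM (30.6 to 66.7) in them against 503 in the other T-lineage cells of anti-PD-1, and at 153 against 994 CPM in the combination in response. Trbc1 was at 2805 against 4418 and 2365 against 4159 CPM, and Trbc2 at 4065 against 7269 and 3576 against 6970 CPM. Trbc2 was found in 100% and 99.3% of the γ-rich cells and Dntt in 92.1% and 93.3%, at medians of 5762 and 4008 UMIs a cell against 1540.5 and 1264 in the rest. Dntt was at 1156 against 1181 CPM in anti-PD-1 and 1869 against 1442 CPM in the combination in response. Trdc was higher in them, at 682 against 349 and 951 against 184 CPM, and Rag2 lower, at 31.3 against 165 and 161 against 320 CPM. Ptcra stood at 80.7 against 103 CPM in anti-PD-1 and at 475 against 79.2 CPM in the combination in response. Mki67 was detected in 65.2% of them against 45.4% of the rest in anti-PD-1, and in 10.0% against 12.8% in the combination in response. Per UMI, however, Mki67 was lower in the γ-rich cells of both libraries, at 407 against 977 and 64.0 against 528 CPM.

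**Figure D4:**
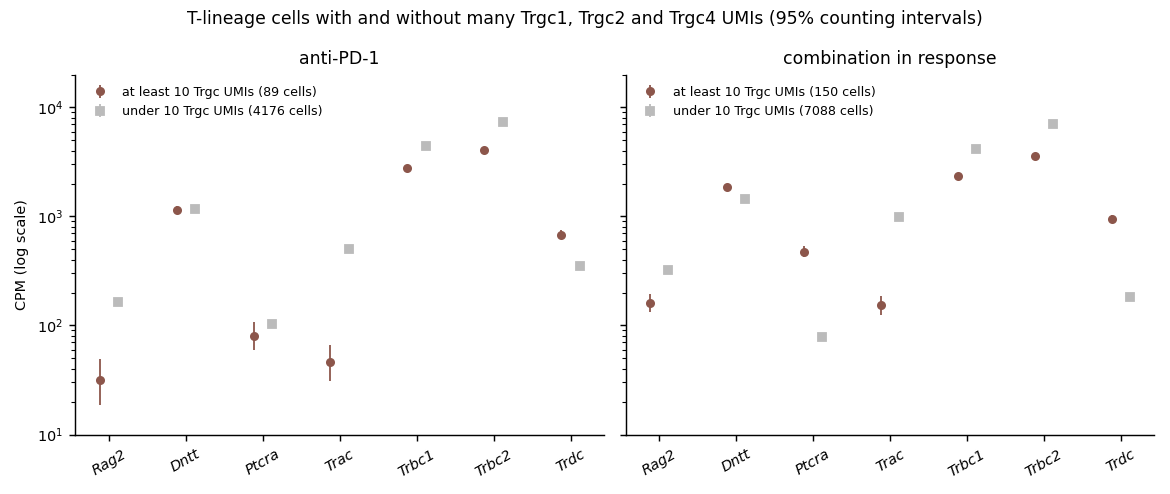
CPM (log axis) of 7 members in T-lineage cells with at least 10 UMIs of Trgc1, Trgc2 and Trgc4 and in the other T-lineage cells, in anti-PD-1 (left, 89 and 4176 cells) and the combination in response (right), with 95% counting intervals. Trac is lower in the γ-rich cells of both libraries (46.1 against 503 and 153 against 994 CPM), and Ptcra is at 475 against 79.2 CPM in the combination in response and 80.7 against 103 CPM in anti-PD-1.

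The γ genes of cells with Cd4 only in the combination in response came from cells with a single Cd4 UMI. Trgc1, Trgc2 and Trgc4 had 239, 235 and 100 UMIs in the 554 cells with 1 Cd4 UMI and 9, 8 and 3 UMIs in the 384 cells with more, a split chosen after the values were seen. Leaving out cells with exactly 1 UMI of Cd4 or of Cd8a turned the ratios of both over Cd4 only from -3.17, -2.75 and -3.02 to 0.28, 0.90 and 0.41, so the 3 members counted as lower there do not hold under that choice. In anti-PD-1 the corresponding UMIs were 2, 16 and 6 against 0, 0 and 0.

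Trbc1 and Trbc2, and Trgc1 and Trgc2, are near-identical copies, and reads from their shared parts cannot be assigned with certainty. In the GENCODE annotation of GRCm39, 495 of 518 coding bases of Trbc1 and Trbc2 were identical (95.6%), the first 259 without a mismatch, and the bases after the coding part were 65.7% identical over 169 aligned. Coding bases 399 to 518, which hold 19 of the 23 mismatches, are shown because they hold most of the coding differences between the β genes, with the differing bases in capitals.
Trbc1: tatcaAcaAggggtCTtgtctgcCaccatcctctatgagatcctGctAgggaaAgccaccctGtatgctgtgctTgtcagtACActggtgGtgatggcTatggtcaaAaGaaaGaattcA
Trbc2: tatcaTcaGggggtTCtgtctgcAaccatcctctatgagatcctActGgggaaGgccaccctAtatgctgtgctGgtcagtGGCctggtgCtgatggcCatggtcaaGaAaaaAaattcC
Trgc1 and Trgc2 were closer still, with 13 mismatches over 500 aligned coding bases (97.4% identical) and 94.4% identity after the coding part. Trgc4 differed more from both (78.7% and 79.7%). In the first 120 coding bases Trgc1 and Trgc2 differ at 2 positions, in capitals.
Trgc1: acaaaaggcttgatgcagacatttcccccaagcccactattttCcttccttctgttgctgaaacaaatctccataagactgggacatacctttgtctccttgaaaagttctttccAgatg
Trgc2: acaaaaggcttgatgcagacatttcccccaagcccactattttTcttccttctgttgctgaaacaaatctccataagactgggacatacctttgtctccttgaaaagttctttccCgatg

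With that limit, the share of Trbc1 in the UMIs of both β genes lay between 34.3% and 37.9% outside vehicle. The intervals of ERBB2i and anti-PD-1 did not overlap. In cells with at least 3 such UMIs it was 34.4% (32.9 to 36.1) in ERBB2i, 34.3% in the combination, 37.9% (37.6 to 38.2) in anti-PD-1 and 37.5% in the combination in response. Both genes were detected in 47.8%, 42.6%, 72.0% and 75.3% of these cells. The cells had medians of 5, 5, 21 and 15 such UMIs, so these shares were not at equal depth. Within the combination the Trbc1 share was 43.2% (37.9 to 48.5) with neither co-receptor and 24.9% (19.7 to 30.8) with Cd8a only. In vehicle it was 50%, from 5 UMIs of each gene. Of the γ UMIs, Trgc1, Trgc2 and Trgc4 made up 36.4%, 50.2% and 13.4% in anti-PD-1, 39.2%, 42.3% and 18.5% in the combination in response and 40.5%, 36.2% and 23.3% in ERBB2i. Within ERBB2i they made up 48.2%, 31.4% and 20.4% in cells with neither co-receptor and 5.80%, 59.4% and 34.8% of 69 UMIs in cells with Cd8a only.

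The filters on cells took γδ UMIs out unevenly. In the combination in response 7238 of 8611 T-lineage barcodes were retained, and the barcodes removed held 50.9% of the Trdc UMIs, 49.4% of Trgc1, 57.0% of Trgc2, 47.8% of Trgc4 and 37.0% of Ptcra, against 13.3% of Trac and 16.7% of Rag2. In anti-PD-1 the removed barcodes held 3.70% to 8.57% of the UMIs of each member. The combination kept 286 of 765 T-lineage barcodes, and those removed held 68.1% of its Trac UMIs, 62.8% of Trbc1, 68.1% of Trbc2, 34.6% of Trdc and 61.5% to 70.7% of each γ gene. Vehicle kept 2 of 68, and those removed held 95.1% or more of its αβ UMIs. Rag2, Dntt and Ptcra had 0 UMIs in all 68. Trdc stood at 283 CPM over all T-lineage barcodes of the combination in response and 349 CPM in anti-PD-1, so that its order between the libraries was the same without filters.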

How the data were processed

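The authors deposited a matrix of UMI counts per gene and cell barcode for each of the 5 libraries, made on the Singleron SCOPE-chip. The paper's methods name CeleScope for the matrices and the submitters' processing notes name Cell Ranger, Scanpy and mm10. Versions of the first 2 are not given there. From the counts, barcodes with more than 150 genes, at most 8% mitochondrial UMIs and at most 3 median absolute deviations above the median, and log total, log genes and top-20 share within 5 deviations were kept, as in the study. Doublets were called with Scrublet in Scanpy 1.11.5 (automatic limit, or a score above 0.25 where that marked under 0.5%), where the study used SOLO. Of 86735 barcodes 73349 passed, 2159 were removed as doublets and 71190 were retained.

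UMIs were summed per library and class, with CPM over the class total. Intervals are exact Poisson for CPM, exact Clopper-Pearson for shares and exact conditional for ratios, at 95%, and cover counting error only. A count of 0 was set to 3 UMIs for a bound. Classes with under 20 cells got no ratio. With 1 library per group no test or p-value was possible. The genes named are the members, of each list up to 4 genes at least 2-fold apart, those with most UMIs first, and the 3 genes most like a member. The members, lists and comparisons were chosen with earlier results of these data known. The ratio and thinning steps were tested on simulated data. All columns of per-sample values were used (0 left out). Alternatives were other filters and class definitions, thinning to 500 UMIs, TMM scaling (edgeR 4.0.16), totals without mitochondrial and ribosomal protein genes, no minimum of UMIs and a 1.5-fold limit. Python 3.11.15, numpy 2.4.6, scipy 1.17.1, pandas 2.3.3, Biopython 1.88 and matplotlib 3.10.9 were used. Summed levels of the T cell stage marker lists and 1 gene of the γδ list are not reported here.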

Additional observations from a re-analysis of the deposited data

Results flagged for a closer look

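The ratio of cells with neither co-receptor over cells with both had opposite signs in the 2 libraries for Ptcra, at a log2 of -0.83 in anti-PD-1 and 0.22 in the combination in response, and for Trdc, at -0.34 and 0.63. The ratio of Trbc2 in cells with both co-receptors, Mki67 detected over not, was -0.18 and 0.10. Each interval lay on its own side of 0. The opposite signs were lost for Ptcra without filters on barcodes (-0.80 and -0.11), for Trdc with classes set on thinned cells (0.50 and 1.15) and for Trbc2 under both (-0.17 and -0.03, 0.27 and 0.22). The effects were set side by side only, and the differences between libraries were not tested, since each group had 1 library.

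Dntt had 118 UMIs in tumour-like cells of vehicle, in 94 of 7101 cells (1.32%), although the library had 2 T-lineage cells with 0 Dntt UMIs. Rag2 and Trdc had 0 UMIs in the same tumour-like cells. Ptcra had 13 in 11 cells, Trac and Trbc1 had 10 each and Trbc2 had 20. The source of these UMIs was not tested.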

How the results depend on the processing

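No paired analysis was possible because each group had 1 library, and leaving out a library was not possible for the same reason. Counting error is the only error these data measure. In cells with both co-receptors γ UMIs are few, and class splits depend on single co-receptor UMIs.

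Keeping doublets left all 98 log2 ratios of members within their intervals, and TMM scaling moved 50 of 98. At least 2 UMIs of Cd4 or Cd8a means that cells with exactly 1 UMI of either were left out. Counts of members at least 2-fold apart that moved by more than 1.5 times are these, where the main count stands in brackets. In the combination in response over anti-PD-1 the number higher (1) became 2 with no filter on barcodes, with doublets kept, with at least 2 Cd3 UMIs, on thinned cells and with at least 2 UMIs of Cd4 or Cd8a, 4 without the exclusion on Chga and Chgb, 0 with TMM scaling and 4 at 1.5-fold, where the number lower (0) became 1. In the combination over ERBB2i the number higher (1) became 0 without that exclusion and with at least 2 UMIs of Cd4 or Cd8a. In anti-PD-1 over ERBB2i the number lower (0) became 2 at 1.5-fold.

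Setting the classes on thinned cells mixes them by construction. With both over Cd4 only it gave 0 higher (5) and 0 lower (1) in anti-PD-1 and 0 higher (4) in the combination in response, where no filter on barcodes gave 2 higher and at least 2 UMIs of Cd4 or Cd8a gave 0 lower (3). With neither over both it gave 1 lower (4) in anti-PD-1, where at least 2 Cd3 UMIs gave 2, and 1 lower (2) in the combination in response, where 1.5-fold gave 4. With Mki67 over without it gave 0 higher (3) in anti-PD-1, where at least 2 UMIs of Cd4 or Cd8a gave 1, and 2 higher (1) and 2 lower (1) in the combination in response. There the number lower was 2 with doublets kept, 3 with at least 2 UMIs of Cd4 or Cd8a and 4 at 1.5-fold.

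Among ratios of at least 2-fold, the signs that turned were those of Trdc with both over Cd4 only in the combination in response on thinned cells (-0.10 in place of 1.20) and of Trgc1, Trgc2 and Trgc4 there with at least 2 UMIs of Cd4 or Cd8a (0.28, 0.90 and 0.41). Ratios within 2-fold turned more often, in 7 cases without filters on barcodes, 7 on thinned cells, 6 with TMM scaling, 6 without the exclusion on Chga and Chgb and 5 with at least 2 UMIs of Cd4 or Cd8a. Apart from the mixing of classes, the cause was not tested.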

Other observations

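The genes whose levels were most like those of a member were read over 13 sums of at least 50 cells (library by co-receptor class), among 7207 genes, as Pearson's r of log2(CPM + 1). The sums share 4 libraries, their depth and their cell makeup, so the values are a description only. Rag2 was most like A930003A15Rik (0.993), Prodh (0.993) and Rapgef3 (0.991), Dntt like Dgkeos (0.984), Endou (0.976) and P2rx1 (0.969), and Ptcra like Dgkeos (0.993), Endou (0.980) and Psmd3 (0.980). Trac was most like Itgb2 (0.935), A430093F15Rik (0.933) and Fam3c (0.915). Trdc had weaker likenesses by this measure, the highest being Pard6g (0.885). By Spearman's rank correlation its highest was Dtnbp1 (0.956), above the highest of Trac (0.934). Other genes than those named then led for Rag2 and Ptcra. Among the members, Dntt and Ptcra were at 0.98, Rag2 and Trbc1 at 0.96 and Trac and Trdc at -0.51.

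Recombination and end-joining genes were also set side by side between the combination in response and anti-PD-1. Of the 12 listed, members Rag2 and Dntt included, 11 passed the minimum, 5 were at least 2-fold higher in response (24.3% of all genes were) and 0 lower, with a list median of 0.98 against 0.28 over all genes. Those with most UMIs were Dclre1c, the hairpin-opening nuclease Artemis (101 against 19.7 CPM), Xrcc4, the ligase partner (102 against 37.1 CPM), Lig4 (116 against 55.5 CPM) and Prkdc, the DNA-dependent protein kinase (34.6 against 13.7 CPM).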
